A study of Mus musculus with 1989 samples.

Results

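Peaks more open in DP sorted cells than in every other sort were described here. CD4 and CD8 double-positive (DP) thymocytes carry both coreceptors at once and form the largest pool of cells in the thymus. The peaks were chosen from the scATAC-seq counts in cells with a total of 1000 or more counts, where a cell with a count above 0 was taken as open at a peak. A member had to be open in 10 or more DP sorted cells, and the share of open DP sorted cells had to be at least 2 times the share in double-negative (DN), CD4 and CD8 sorted cells each. A total of 331 of the 138317 peaks met this rule, out of 10489 peaks that were open in 10 or more DP sorted cells (3.16%). The shares of open cells in the 4 sorts chose the members and are given as a description.

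The mice were of the inbred strain C57BL/6, and the labels give male animals of 7 weeks. Cells with 1000 or more counts were 175 of DN, 116 of DP, 96 of CD4 and 91 of CD8 sorted cells and 1075 total thymocytes, whose labels carry the numbers 1 to 36. The labels do not tie cells to animals. Each sort was therefore taken as 1 sample without a test between sorts, and the intervals given are exact binomial 95% intervals that cover counting error only. The labels name no transgene, deletion or treatment for any group.

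DP cells first divide as blasts and then rest while the RAG1 and RAG2 recombinase rearranges the T cell receptor α chain. E proteins such as E2A and HEB bind E-boxes in enhancers of DP cells and fall under the control of Id proteins once a receptor signals. Open chromatin was measured with the transposase Tn5, which inserts adapters where DNA is accessible.

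The central 200 bases of 7 members are printed because they lie in loci of genes that define DP cells or have one of the highest shares or ratios, and because they show the short motifs counted later. They were read from the plus strand of GRCm38. Capitals mark the E-boxes CACCTG and CAGCTG and the nuclear receptor site AGGTCA, on either strand.
Rag locus, upstream of Rag2, chr2:101552398-101552597: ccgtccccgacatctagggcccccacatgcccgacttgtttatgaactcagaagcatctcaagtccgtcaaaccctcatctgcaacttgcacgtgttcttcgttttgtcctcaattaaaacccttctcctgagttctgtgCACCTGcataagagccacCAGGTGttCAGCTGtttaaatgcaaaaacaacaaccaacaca
Cd8a, upstream, chr6:71371214-71371413: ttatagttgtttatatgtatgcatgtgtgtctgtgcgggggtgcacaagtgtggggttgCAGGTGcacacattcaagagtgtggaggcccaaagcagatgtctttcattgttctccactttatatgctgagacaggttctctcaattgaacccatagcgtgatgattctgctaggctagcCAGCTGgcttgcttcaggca
Between Cd8b1 and Cd8a, chr6:71360790-71360989: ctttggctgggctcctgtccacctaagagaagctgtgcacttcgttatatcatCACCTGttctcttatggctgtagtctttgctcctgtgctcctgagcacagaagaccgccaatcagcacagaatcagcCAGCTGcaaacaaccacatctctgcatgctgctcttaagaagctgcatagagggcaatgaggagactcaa
Dntt, upstream, chr19:41027099-41027298: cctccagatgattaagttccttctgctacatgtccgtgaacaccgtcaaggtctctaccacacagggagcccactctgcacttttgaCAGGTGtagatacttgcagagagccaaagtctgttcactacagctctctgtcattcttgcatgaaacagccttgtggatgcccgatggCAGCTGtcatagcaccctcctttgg
Serinc5 intron, chr13:92659744-92659943: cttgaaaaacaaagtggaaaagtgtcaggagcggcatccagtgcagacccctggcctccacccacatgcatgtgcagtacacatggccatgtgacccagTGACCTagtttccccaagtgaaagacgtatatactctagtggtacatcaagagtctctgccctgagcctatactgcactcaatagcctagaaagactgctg
Intergenic near Pdcl3, chr1:39025278-39025477: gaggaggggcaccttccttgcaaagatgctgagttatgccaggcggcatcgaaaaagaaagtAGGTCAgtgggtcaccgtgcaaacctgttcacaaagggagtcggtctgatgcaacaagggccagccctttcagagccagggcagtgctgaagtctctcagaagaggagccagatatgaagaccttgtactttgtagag
Intergenic near Nkx2-4, chr2:147127444-147127643: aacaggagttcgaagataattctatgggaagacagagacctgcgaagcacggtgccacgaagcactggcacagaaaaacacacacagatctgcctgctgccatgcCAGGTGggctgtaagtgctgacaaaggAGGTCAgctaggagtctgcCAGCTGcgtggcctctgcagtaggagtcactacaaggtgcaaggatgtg

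The Rag locus window held 2 CACCTG and 1 CAGCTG. Both windows near Cd8a and the window near Dntt held 1 CACCTG and 1 CAGCTG. The Serinc5 and Pdcl3 windows held 1 AGGTCA and no E-box of either kind, and the Nkx2-4 window held 1 of each of the 3 motifs.

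The recombinase locus on chromosome 2 held 4 members. The strongest, chr2:101550498-101554497, was intergenic with its center 72.2 kb upstream of the start of Rag2, in the stretch where the anti-silencer element of the Rag genes has been described. It was open in 33 of 116 DP sorted cells (28.4%, 20.5 to 37.6), in 10 of 175 DN (5.71%, 2.77 to 10.3), in 2 of 96 CD4 (2.08%, 0.253 to 7.32) and in 11 of 91 CD8 sorted cells (12.1%, 6.19 to 20.6). The DP share was 29.0%, 28.6% and 27.3% in the 3 numbered series of DP cell labels, 3000, 4000 and 31000. Other members differed more between these series: the shares were 35.5%, 30.2% and 9.09% at the start of Rag1, 38.7%, 25.4% and 4.55% upstream of Cd8a, 22.6%, 23.8% and 4.55% at the stronger Runx1 peak and 25.8%, 12.7% and 0% upstream of Dntt. Over all members the mean DP share was 16.3%, 14.9% and 5.22%, and after each cell was thinned to 1000 counts 3.80%, 3.77% and 3.05%. A member that overlapped it, 74.3 kb upstream of Rag2, was open in 14 DP, 6 DN, 2 CD4 and 4 CD8 sorted cells.

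The other pair of members in the locus lay at the start of Rag1, which encodes the catalytic subunit of the recombinase, and overlapped each other. The peak chr2:101647603-101651602, centered 0.1 kb upstream of Rag1 and 71 bp before a start of the neighboring gene B230118H07Rik, was open in 32 DP (27.6%, 19.7 to 36.7), 16 DN (9.14%) and 12 CD8 sorted cells (13.2%). None of the 96 CD4 sorted cells was open there. Where no cell was open, the limit given is that of 3 cells, here 3.13%. The peak chr2:101646299-101650298, centered in the first kilobases of Rag1, was open in 27 DP (23.3%, 15.9 to 32.0), 16 DN (9.14%), 5 CD8 (5.49%) and again 0 CD4 sorted cells. All 4 members of the locus were thus lowest in CD4 sorted cells.

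The neighboring genes Cd8b1 and Cd8a encode the chains of the CD8 coreceptor, and 5 members lay nearest to one of their starts on chromosome 6. The peak chr6:71369314-71373313, 2113 bp upstream of Cd8a, was open in 29 DP (25.0%, 17.4 to 33.9), 12 DN (6.86%), 2 CD4 (2.08%) and 11 CD8 sorted cells (12.1%, 6.19 to 20.6). A peak 12.5 kb upstream of Cd8a was open in 18 DP (15.5%), 6 DN (3.43%), 2 CD4 (2.08%) and 5 CD8 sorted cells (5.49%). The remaining 3, 15.1 kb, 0.4 kb and 0.7 kb after the start of Cd8b1, were open in 11 to 13 DP sorted cells, and the last of them in 1 of 91 CD8 sorted cells. CD8 sorted cells had a higher share than CD4 sorted cells at each of the 5. At the last of them, 1 CD8 against 0 CD4 sorted cells is within the limit of 3 cells.

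Other members lay near genes of the DP stage. Dntt encodes terminal deoxynucleotidyl transferase, which adds bases at receptor joints. A peak 2076 bp upstream of it was open in 16 DP (13.8%, 8.09 to 21.4), 8 DN (4.57%), 3 CD4 (3.12%) and 4 CD8 sorted cells (4.40%), and a peak that overlapped it, at the start, was open in 14 DP, 10 DN, 0 CD4 and 4 CD8 sorted cells. Ccr9, a chemokine receptor of thymocytes, had 2 intronic members, of which chr9:123755613-123759612 was open in 27 DP (23.3%, 15.9 to 32.0), 15 DN (8.57%), 7 CD4 (7.29%) and 10 CD8 sorted cells (11.0%). Plxnd1, a semaphorin receptor, had 1 member over coding sequence, open in 12 DP, 7 DN, 0 CD4 and 2 CD8 sorted cells. One member lay over the coding exon of the variable gene segment Trav21-dv12 of the receptor α and δ locus and was open in 12 DP, 5 DN, 2 CD4 and 3 CD8 sorted cells. Its nearest protein-coding start was that of Dad1.

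Runx1, a transcription factor of the T lineage, had 2 overlapping intronic members, of which chr16:92714210-92718209 was open in 23 DP (19.8%, 13.0 to 28.3), 6 DN (3.43%), 2 CD4 (2.08%) and 5 CD8 sorted cells (5.49%). Cd247 encodes the ζ chain of the receptor complex. Its intronic peak chr1:165799409-165803408 was open in 12 DP (10.3%, 5.46 to 17.4), 2 CD4 (2.08%) and 1 CD8 sorted cell (1.10%), and in 0 of 175 DN sorted cells, with a limit of 3 cells or 1.71%. An overlapping member, chr1:165798826-165802825, was open in 11 DP, 1 DN, 3 CD4 and 4 CD8 sorted cells. Myb had 1 member 62.8 kb upstream, open in 14 DP, 9 DN, 4 CD4 and 4 CD8 sorted cells. A pair of intergenic members 362148 and 368897 bp from the start of Ptprc, the gene of CD45, was open in 16 and 12 DP sorted cells.

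**Figure D1:**
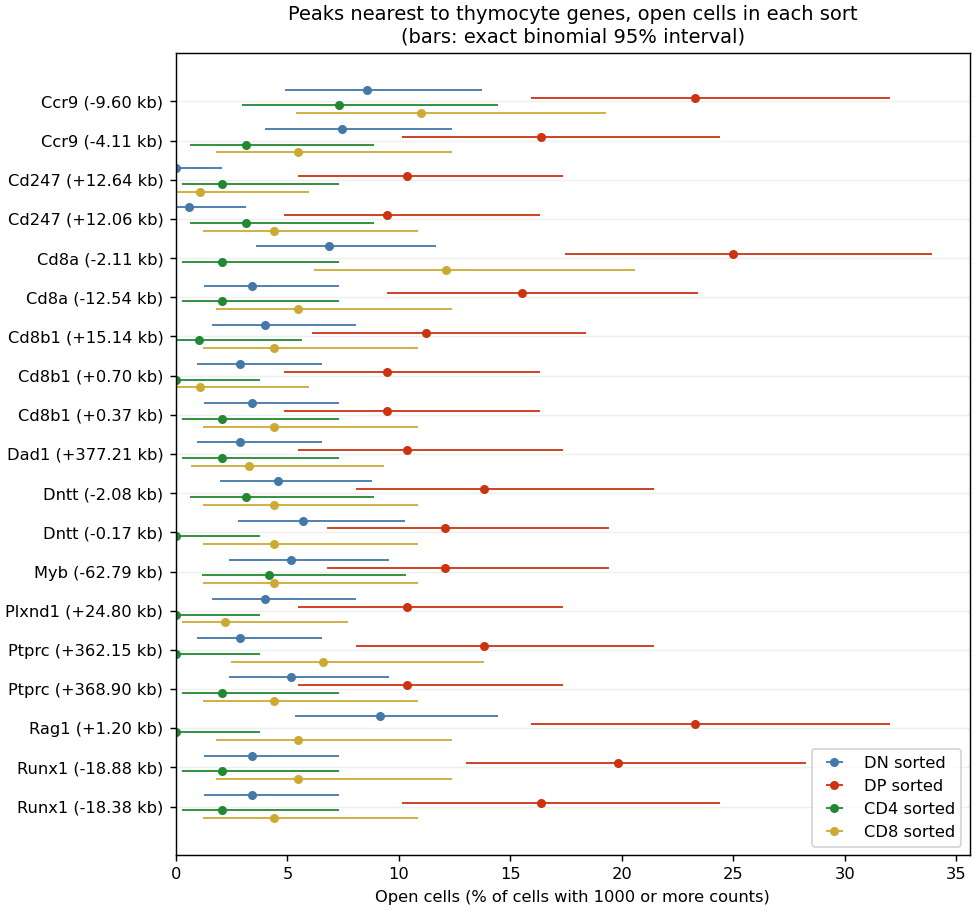
Share of open cells (x axis, percent of cells with 1000 or more counts) at 19 named members nearest to genes of the lists, labelled by gene and distance of the peak center from its nearest start in kb, in each sort with exact binomial 95% intervals. The DP share was the highest at each peak by the rule that chose them, and the strongest, upstream of Cd8a, reached 25.0%. At some of these peaks the exact interval of the ratio to the next sort included 1.

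In the list of 25 genes of the DP stage, 20 were nearest to a peak open in 10 or more DP sorted cells, and 8 of these 20 (40.0%) were nearest to a member, among them Rag1, Cd8a, Cd8b1, Dntt, Ccr9, Plxnd1 and Dad1. Over all genes the same share was 273 of 6434 (4.24%). In the list of 16 T identity and E protein genes it was 2 of 15, Runx1 and Myb, and in the list of 20 T cell receptor signaling genes it was 2 of 18, Cd247 and Ptprc. The lists were drawn up with these data known. None of the 5 genes of the DN stage and none of the 6 genes of the SP stage with such a peak was nearest to a member. At the share over all genes (4.24%) lists this short would mostly hold none, so these counts are no contrast to the DP list. Dad1 counts among the 8 only through the peak over Trav21-dv12, 377209 bp from its start.

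The highest DP share of all members was that of the intergenic peak chr1:39023378-39027377, 39770 bp from the start of Pdcl3. It was open in 41 of 116 DP sorted cells (35.3%, 26.7 to 44.8), 24 DN (13.7%, 8.99 to 19.7), 4 CD4 (4.17%) and 14 CD8 sorted cells (15.4%). The next, an intergenic peak 321364 bp from Hlx, was open in 39 DP (33.6%), 15 DN (8.57%), 0 CD4 and 12 CD8 sorted cells (13.2%). Introns of Phkb, Arl15, Vti1a and Ntrk3 and a stretch beside Snx18 held further peaks among the 10 highest, open in 33 to 38 DP sorted cells. The Rag locus held 2 of the 10.

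The largest ratio of the DP share to the highest other share, with a count of 0 set to 3 cells, was 9.41 (exact 95% interval of the ratio 1.39 to 402) for a peak 7048 bp before Spdl1, open in 12 DP and in 1 cell of each other sort. More DP sorted cells stood behind the ratio of 4.71 at chr13:92657844-92661843 in an intron of Serinc5, which encodes a membrane protein. This peak was open in 24 DP (20.7%, 13.7 to 29.2), 1 DN (0.571%, 0.0145 to 3.14), 1 CD4 (1.04%, 0.0264 to 5.67) and 4 CD8 sorted cells (4.40%, 1.21 to 10.9). An intergenic peak 42099 bp before Nkx2-4 was open in 20 DP (17.2%, 10.9 to 25.4), 3 DN (1.71%), 0 CD4 and 2 CD8 sorted cells (2.20%), and its DP share was 12.9%, 17.5% and 22.7% in label series 3000, 4000 and 31000. The others of the 10 highest ratios rested on 10 to 13 open DP sorted cells, except at a peak in an intron of Nhsl1, open in 20 DP, 4 DN, 1 CD4 and 3 CD8 sorted cells.

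The 331 members had 273 nearest genes, so most genes had a single member. Ldlrad3 had 4 members, all intronic, and Slc7a11, a cystine transporter, Gpcpd1, Lipa, a lysosomal lipase, and B230118H07Rik in the Rag locus had 3 each. Other genes with 3 members, such as Cd8b1, had a lower sum of DP shares. At Slc7a11 the peak at its start was open in 18 DP (15.5%), 11 DN (6.29%), 0 CD4 and 3 CD8 sorted cells (3.30%), and those 232328 and 245944 bp away in 19 and 20 DP sorted cells. The 3 members in Lipa overlapped one another.

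Over all 331 members, the median share of open cells was 12.1% in DP, 4.00% in DN, 2.08% in CD4 and 4.40% in CD8 sorted cells, and the DP share ran from 8.62% to 35.3%. The sort with the highest other share was CD8 for 153 members, DN for 138 and CD4 for 40. A count of 0 was found in CD4 sorted cells for 75 members, against 13 in CD8 and 4 in DN sorted cells. A ratio of 3 or more was reached by 84 members, and 187 members were open in only 10 to 14 DP sorted cells. Just inside the limit of 2 times were peaks nearest to Ppm1h, Bcat1 and Camkk1, with ratios of 2.005, 2.011 and 2.011. Just outside were peaks nearest to Hnrnpll, Il4ra and Serinc5, with ratios of 1.997, 1.991 and 1.980, of which the first was open in 28 DP and 11 CD8 sorted cells. Some members overlapped, so that the 331 members made up 298 separate stretches. The same rule found 2402 peaks for DN (9.14% of the peaks open in 10 or more DN sorted cells), 1402 for CD4 (11.5%) and 453 for CD8 (4.32%).

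DP sorted cells were not the deepest. The median total was 3959 counts in DP sorted cells, against 3657 in DN and 5308 in CD4 sorted cells, with that of CD8 sorted cells between those of DP and CD4. After each cell was thinned at random to 1000 counts, the mean share of open cells over the members was 3.64% in DP, 0.732% in DN, 0.441% in CD4 and 0.930% in CD8 sorted cells, and 0.677% to 0.690% over all peaks in each of the 4 sorts. Over the other peaks open in 10 or more DP sorted cells it was 4.31%, 3.51%, 3.53% and 3.65%. That filter alone thus already went with a higher DP share. The members were chosen on these same counts, here at an equal depth. Only 15 members kept 10 or more open DP cells at that depth.

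Within label series 4000 the mean share over the members was 14.9% in DP, 6.07% in DN, 3.78% in CD4 and 4.83% in CD8 sorted cells, and within label series 31000 it was 5.22%, 1.58%, 0.847% and 1.14%. The members were chosen on these cells, so the rule was also applied to the cells of 1 label series and read in another. The series are numbers in the labels, which do not say what they stand for. In series 4000 alone, with 30 DN, 63 DP, 55 CD4 and 77 CD8 sorted cells, 110 peaks met the rule, and 76 of them were members. Median totals in series 31000 were 1263 counts in DN, 1585.5 in DP, 1543 in CD4 and 1519 in CD8 sorted cells. In this series, which had no part in that choice, these 110 peaks were open in a mean of 4.83% of 22 DP (4.01 to 5.77), 2.92% of 23 DN (2.30 to 3.66), 1.44% of 41 CD4 (1.11 to 1.83) and 2.21% of 14 CD8 sorted cells (1.53 to 3.07). The DP share was thus 1.65 times the highest other share, where over all peaks the same ratio was 0.702. With the cells of series 31000 thinned to 1000 counts the shares were 2.73% in DP, 1.07% in DN, 0.820% in CD4 and 1.04% in CD8 sorted cells, a ratio of 2.56. These intervals pool peaks and cells, which are not independent.

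Both other ways of making this comparison gave a lower ratio. When the cells were thinned to 1000 counts before the choice, 17 peaks were chosen, 1 of them a member. Their shares in series 31000 were 10.5% in DN, 10.1% in CD8, 9.33% in CD4 and 8.56% in DP sorted cells. The ratio was thus 0.816, against 0.935 over all peaks, and the DP share was the lowest of the 4 sorts. The exact binomial interval of the DP share (5.93 to 11.9) included the shares of the other sorts. When the peaks were chosen in series 31000 and read in series 4000, only 4 peaks met the rule, none of them a member, and the shares were 30.6% in DP, 29.5% in CD8, 29.2% in DN and 20.9% in CD4 sorted cells, a ratio of 1.03 against 0.558 over all peaks.

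**Figure D2:**
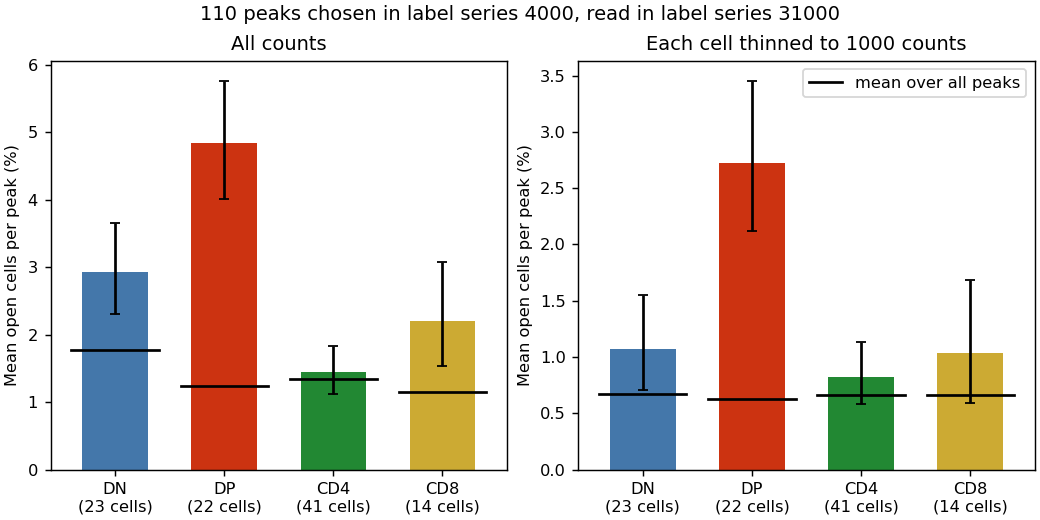
Mean share of open cells per peak (y axis, percent) over 110 peaks chosen in label series 4000, in the cells of label series 31000, with all counts (left) and with each cell thinned to 1000 counts (right). Bars are sorts with exact binomial 95% intervals and black lines are the mean over all peaks; the DP bar stood at 4.83% against 1.24% over all peaks with all counts.

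DP sorted cells of label series 3000 have no counterpart in the other sorts. Without them the rule chose 158 peaks, of which 139 were members. In the 31 left-out DP cells these 158 peaks were open in a mean of 14.7% (13.7 to 15.7), against 5.15% in DN, 3.01% in CD4 and 5.13% in CD8 sorted cells, which had been used for the choice. Without label series 4000 the rule chose 170 peaks, of which 33 were members, so the membership of single peaks depended much on which cells entered.

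Total thymocytes were not used by the rule. The members were open in a median of 8% of the 1075 total thymocytes. After thinning to 1000 counts the mean share over the members was 2.05% in total thymocytes, between that in DP sorted cells (3.64%) and those in the other sorts, and 0.689% over all peaks. The peaks that met the rule for DN had a mean of 0.591% in total thymocytes, and peaks whose share in both CD4 and CD8 sorted cells was at least 2 times that in DN and DP had 0.383%. Both sets were also weaker in the sorts that chose them. The first had 1.49% in DN sorted cells and the second 1.93% in CD4 and 1.76% in CD8, against 3.64% for members in DP. The DP rule asks for 10 or more open DP sorted cells. The other peaks that met this had a mean of 4.37% in total thymocytes, above that of the members. The DP rule also caps members in the other sorts, whose cells are part of total thymocytes, which works toward this order.

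**Figure D3:**
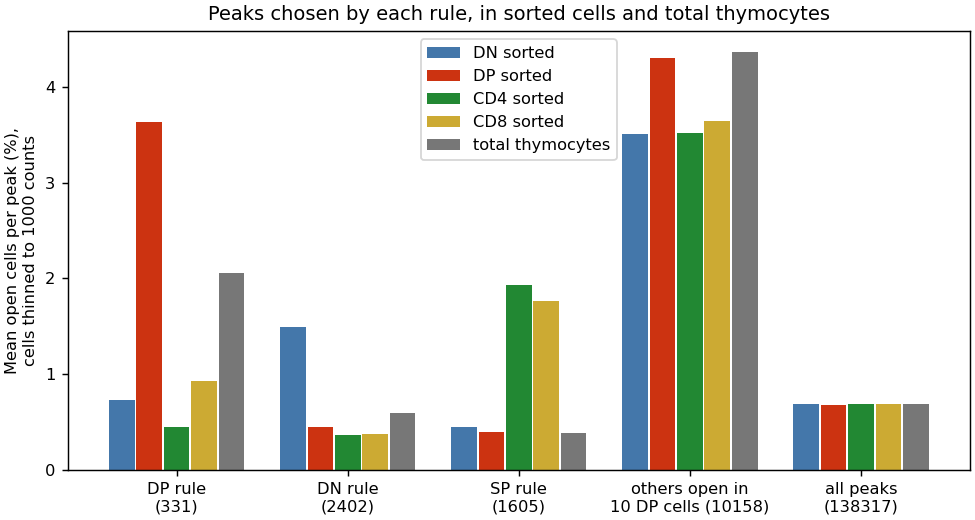
Mean share of open cells per peak (y axis, percent, each cell thinned to 1000 counts) over the peaks chosen by the DP, DN and SP rules, over the other peaks open in 10 or more DP sorted cells and over all peaks (x axis, number of peaks in brackets), in the 4 sorts and in total thymocytes. Total thymocytes, which no rule used, stood at 2.05% for the DP rule, 0.591% for the DN rule, 0.383% for the SP rule and 4.37% for the other peaks.

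Per cell, the members took a median of 136.4 of 10000 counts in DP sorted cells, with quartiles of 113.1 and 150.3. In DN, CD4 and CD8 sorted cells the medians were 21.6, 13.3 and 23.0. In total thymocytes the median was 71.8, with quartiles of 57.5 and 85.3. By the numbers 1 to 36 in their labels, the medians of total thymocytes lay between 65.4 and 81.6. DP sorted cells had medians of 140.3 in label series 3000, 137.5 in 4000 and 78.9 in 31000, so the last of these fell within the range of total thymocytes. At the same number of open DP sorted cells, members were also less open in total thymocytes than other peaks. Among peaks open in 10 to 14 DP sorted cells the medians were 6.23% for 187 members and 11.4% for 4972 other peaks. Among those open in 20 to 29 they were 16.7% for 56 members and 27.1% for 1961 other peaks. The rule itself leads to this order, since it caps members in sorts whose cells are also part of total thymocytes. Single members spread widely there, from 0.558% to 51.1%. The Myb member was open in 3.72% of total thymocytes and 12.1% of DP sorted cells, whereas the Rag locus peak upstream of Rag2 had 33.5% and 28.4%.

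Most members lay away from transcription starts. The center was within 2000 bp of a start of a protein-coding gene for 39 of 331 members (11.8%), against 61.4% of the other 10158 peaks open in 10 or more DP sorted cells, 26.0% of all peaks, 36.2% of the DN rule and 14.6% of the SP rule. The median distance was 24.6 kb for members and 0.364 kb for the other peaks. Introns held 177 members (53.5%) and intergenic stretches 119 (36.0%), with 12 over coding exons, 11 over UTR exons and 12 over noncoding exons. Over all peaks 54.0% were intronic and 32.5% intergenic, close to the members, and over the other peaks open in 10 or more DP sorted cells 36.4% and 40.9%. Members near a start included those of Rag1, Dntt, Cd8b1, Slc7a11, Gtf2h4, a subunit of the general transcription factor TFIIH, and Tubb2b, a β-tubulin.

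Short motifs were counted in the central 400 bp on both strands. To compare like with like, only peaks beyond 2 kb of a start were used, which left 292 members and 3917 other peaks open in 10 or more DP sorted cells, with a median GC content of 49.75% and 50.75%. The total count over all used cells was not matched. With peaks near starts included, its median was 130 for members, 304 for other peaks, 47 for the DN rule and 41 for the SP rule. CACCTG, an E-box bound by E proteins and by the repressor Zeb1, was in 67.8% of these members, against 48.3% of the other peaks, 43.8% of the DN rule, 24.1% of the SP rule and 35.3% of all peaks beyond 2 kb. The other E-box, CAGCTG, was in 40.8% of members and 40.0% of the other peaks, with 38.3% for the DN rule and 17.9% for the SP rule. The shares of members and other peaks were thus far apart for the first E-box and close for the second. AGGTCA, a site of nuclear receptors, was in 30.5% of members and 20.6% of the other peaks, and in 23.6% of all peaks beyond 2 kb. With a T before it (TAGGTCA, chosen after the data were seen, and a subset of the matches to AGGTCA) it was in 12.3% of members, against 4.7% of the other peaks, 2.6% of the DN rule and 2.9% of the SP rule.

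The other motifs were less frequent in members than in the other peaks or differed by a few percentage points. The Runx site TGTGGT was in 33.9% of members, against 43.1% of the other peaks, 52.1% of the DN rule and 42.6% of the SP rule. The Tcf/Lef site CTTTGA was in 25.7% of members and 30.4% of the other peaks, and in 37.9% of the SP rule. ACAGGAAGT, an Ets site, was in 2.7% of members and 6.5% of the other peaks, and CCGGAAGT, another, in 0.7% and 2.0%. The GATA site AGATAA was in 19.9% and 17.0%, the Ikaros site TGGGAA in 26.7% and 26.6%, the AP-1 sites TGACTCA and TGAGTCA in 9.6% and 8.4%, the CTCF core CCCTC in 71.9% and 73.2%, the Sp site GGGGCGG in 6.2% and 11.8%, and Egr sites in 0.3% and 1.2%. A match describes letters in the window, not binding.

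The order of members and other peaks in CACCTG held at each level of DP openness. Among peaks open in 10 to 14 DP sorted cells the shares were 62.8% of 164 members and 44.8% of 2194 other peaks, among those open in 15 to 19 they were 72.5% of 69 and 50.2% of 903, and among those open in 20 or more 76.3% of 59 and 55.5% of 820. TAGGTCA was in 9.1%, 18.8% and 13.6% of members in these 3 groups, against 4.4%, 4.5% and 5.6% of other peaks. In the 100 bp on either side of the center 28.1% and 31.5% of members had CACCTG, against 5.8% and 8.9% in the outermost 100 bp windows, centered 950 bp away. It was also more frequent at the center of the other peaks (17.2% and 18.6%, against 7.9% and 8.2%) and of the DN rule (16.6% and 14.8%, against 7.8% and 8.0%), but not of the SP rule (6.4% and 5.9%, against 6.9% and 7.8%). For AGGTCA the central values were 10.3% and 12.0%, and those 950 bp away 7.5% and 6.5%. The central values were 5.4% and 5.6% in the other peaks, 4.8% and 4.6% in the DN rule and 5.8% and 4.9% in the SP rule, none of them above those 950 bp away (7.1% and 6.7%, 5.8% and 6.8%, 5.8% and 6.5%). Of all 331 members, 220 had CACCTG (66.5%), 96 had AGGTCA (29.0%) and 64 had both (19.3%). Beyond 2 kb of a start both were in 20.5% of the 292 members and in 10.4% of the 3917 other peaks.

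**Figure D4:**
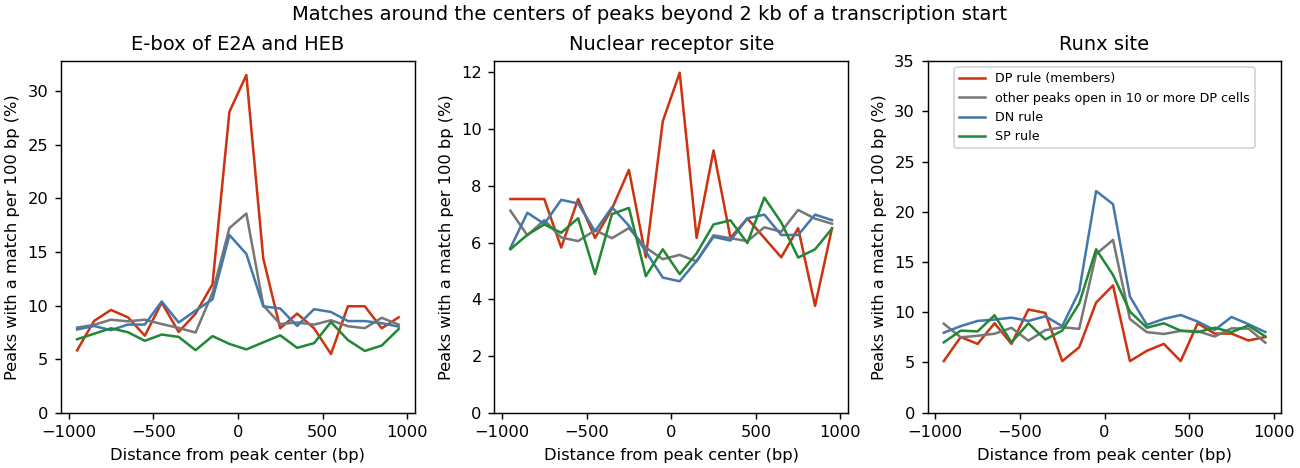
Share of peaks with a match per 100 bp (y axis, percent) by distance from the peak center (x axis, bp) for the E-box CACCTG, the nuclear receptor site AGGTCA and the Runx site TGTGGT, in peaks beyond 2 kb of a start chosen by the DP, DN and SP rules and in other peaks open in 10 or more DP sorted cells. The E-box line of members reached 31.5% at the center and that of the other peaks 18.6%, whereas at the center the Runx line of the DN rule was higher than that of members.

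The scRNA-seq library of 1993 cells gave the level of the nearest genes. Cells were clustered, and clusters named from marker genes as DN-like, ISP-like, DPbla-like (blasts), DPre-like (rearranging), DPsel-like (under selection), CD4sp-like and CD8sp-like. Values are means of log2 normalized values, and differences between clusters are a description, since the clusters were made from the same genes. Of the 273 nearest genes of members, 188 were measured and were no cluster marker. The DPre-like class was made of 3 clusters, of which 1, led by Lgals1, had Mki67 in 43.0% of its cells. In 37 of these 188 (19.7%) the mean was at least 0.1 higher in the 496 DPre-like cells than in the DN-like, the CD4sp-like and the CD8sp-like cells alike. This share was 2.59% over all genes that were no marker, 3.67% over nearest genes of the other peaks open in 10 or more DP sorted cells, 2.81% for the DN rule and 4.86% for the SP rule. The median difference was 0.00 over the nearest genes of members and -0.02 over all genes, so most nearest genes did not stand out.

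Tubb2b had the largest difference among them, with a mean of 1.65 in DPre-like cells against at most 0.22 in the DN-like, CD4sp-like and CD8sp-like classes. Gtf2h4 had 1.09 in DPre-like cells and at most 0.24 in those 3 classes. Slc7a11 had 0.55 and at most 0.05, Socs1, an inhibitor of cytokine signaling, 0.73 and at most 0.40, and Cd247 1.27 and at most 0.81. Ccr9 was at 1.85 in DPre-like cells but at 2.12 in DPsel-like cells. Ap3s1 and Hmgb1, a chromatin protein, were higher in DPbla-like cells, at 2.33 and 5.15, than in DPre-like cells, at 1.83 and 4.04. Serinc5 had 0.16 in DPre-like and at most 0.04 in the 3 reference classes, a small difference at a low level.

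Several genes with a member went the other way. Runx1 had a mean of 0.80 in DN-like cells and 0.21 in DPre-like cells, and Myb, a regulator of early thymocytes, had 1.33 and 0.81. Dntt was at 2.97 in DN-like and 2.65 in DPre-like cells, with at most 0.63 in CD4sp-like and CD8sp-like cells. Ptprc was at 1.27 in DPre-like and 1.73 in CD4sp-like cells. Rag1, Cd8a and Cd8b1 were among the markers that named the clusters and were left out of the count. Their means in DPre-like cells were 1.89, 2.98 and 4.16.

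**Figure D5:**
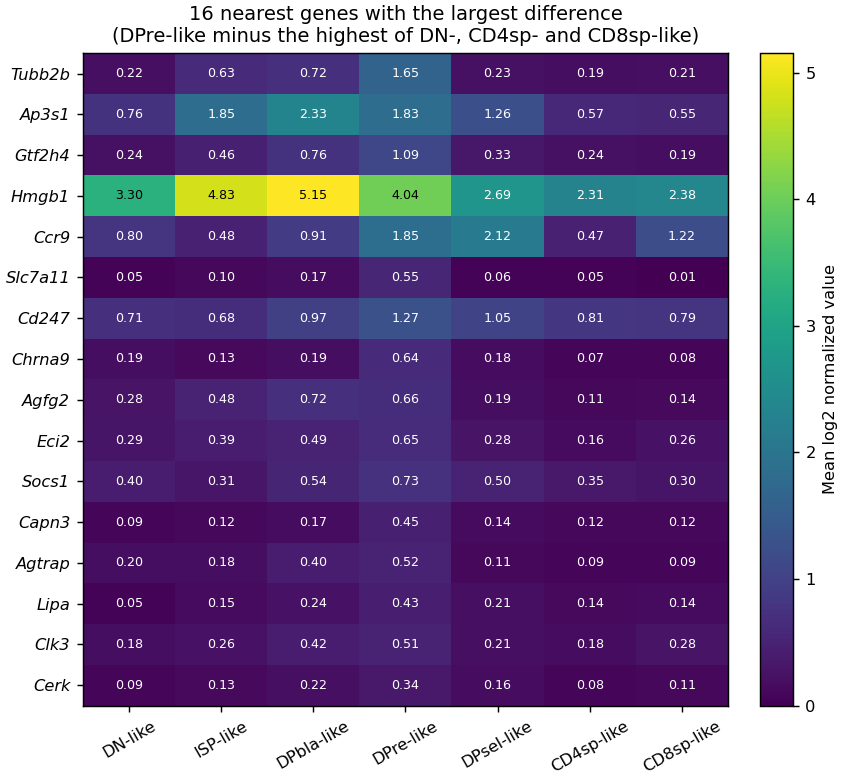
Mean log2 normalized value (color and number) of the 16 nearest genes of members with the largest difference between DPre-like cells and the highest of DN-like, CD4sp-like and CD8sp-like cells (rows, markers left out) in 7 classes of thymocytes (columns). Tubb2b stood at 1.65 in DPre-like cells and 0.72 in DPbla-like cells, whereas Ap3s1 and Hmgb1 were highest in DPbla-like cells.

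The labels of the sorts were set beside the signal at marker genes, in counts per 10000. Peaks nearest to Cd8a took 8.91 in DP, 5.65 in CD8, 2.37 in CD4 and 2.09 in DN sorted cells, a sum that includes members. Peaks nearest to Zbtb7b, the factor of the CD4 lineage, took 1.76 in CD4 and 0.411 to 0.788 in the other sorts. Peaks nearest to Il2ra, a marker of DN cells, took 2.14 in DN and 3.65 in DP sorted cells, and those nearest to Ptcra, another, 0.254 and 0.318, so neither marked the DN sort. Peaks nearest to Cd4 took 2.08 in DP, 1.93 in CD4, 1.42 in CD8 and 1.04 in DN sorted cells. Those nearest to Ccr7, a receptor of mature thymocytes, took 6.11 in CD4, 5.92 in CD8, 3.40 in DN and 2.80 in DP sorted cells. At promoters of other cell types, myeloid genes (4 of 5 with a peak) took 0.789 in CD4 and 0.697 in DN sorted cells, but 0.127 in DP and 0.123 in CD8 sorted cells. B cell genes (3 of 5) took 0.212 to 0.432, epithelial genes (3 of 5) 0.0848 to 0.164, erythroid genes (2 of 4) 0.0822 to 0.422 and NK genes (2 of 3) 0.0636 to 0.432 over the 4 sorts. The part of such cells in the shares at members was not tested.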

How the data were processed

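Single thymocytes were assayed by scATAC-seq after sorting or without it, and by droplet scRNA-seq. For scATAC-seq the authors used Bowtie2 for mapping, Picard for duplicates and MACS2 for a peak set from all cells merged. They are the source of the deposited table, which holds raw counts in peaks that are each 4000 bp wide. For scRNA-seq the authors used Cell Ranger 1.3.1, filtered cells and genes and deposited quantile-normalized log2 values. A total of 362 cell columns were not used, 352 of them total thymocytes that share no start of a column name of their own and 10 of no stated group. The build of the peak table was taken to be GRCm38, since 25.95% of peak centers lay within 2000 bp of a start and 7.71% did after a shift of 100000 bp. Nearest starts and features came from GENCODE vM21 and sequence from RefSeq, GRCm38.p6.

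Opens were counted per sort in cells with 1000 or more counts. Exact binomial 95% intervals were computed with scipy 1.17.1 and sequence was read with pysam 0.24.0 in Python 3.11.15. Clusters were made with Seurat 5.3.0 in R 4.3.3 (1306 variable genes, 20 principal components, 30 neighbors, resolution 2) and only clusters with Mki67 in 50% of cells could be ISP-like or DPbla-like. Cells were thinned with a fixed seed. The rule was run on simulated counts with a larger DP excess than that of most members. This checked the code and not how many peaks pass by chance. Since each sort was 1 sample, no test was run.

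Members, gene lists and motifs were chosen with earlier results of these data known. The text names the 10 members with the highest DP share, the 10 with the largest ratio, members nearest to list genes (up to 3 per gene), the 5 genes with the most members (ties by summed DP share) and 3 peaks on each side of the limit. Genes named from the expression data were chosen after their values were seen. Doublets were not called. The members at 1 list gene are not reported here.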

Additional observations from a re-analysis of the deposited data

How the results depend on the processing

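The number of members was 331. It was 329 with a minimum total of 500, 252 with 2000 and 290 without label series 31000, all within 1.5 times. It moved to 12 when a count of 2 or more was taken as open (5 of them members), 67 with 20 or more open DP sorted cells, 822 at 1.5 times, 84 at 3 times, 75 after thinning to 1000 counts (14 of them members), 171 among peaks that overlap no other kept peak, 170 without label series 4000 (33 members) and 158 without DP sorted cells of label series 3000 (139 members). The ratio of 1.65 read in label series 31000 was 1.57 with a minimum total of 500, 2.56 when only the reading was thinned (chosen after seeing the data), 1.03 with the series swapped and 0.816, below 1, when the choice was thinned too. That last choice fell on 17 peaks with 1 member among them and the swapped choice on 4 peaks, so both read other peaks. The median share in total thymocytes moved from 8% to 1.58% on thinning. The share near a start was 8.46% within 1000 bp and 11.1% for members that do not overlap. The share of all members with CACCTG was 66.5% in the central 400 bp, 52.0% in 200 bp, 79.5% in 1000 bp and 69.8% without overlap. The share of nearest genes higher in DPre-like cells was 7.45% at a difference of 0.25, 24.1% within 50000 bp and 23.4% with clusters at resolution 1, where no CD4sp-like cluster was named. Total thymocytes of label series 5000 were planned as an alternative and not run, since their columns were not used here. No paired analysis was run, since each sort was taken as 1 sample and no fit was made to which a block could be added. The sorts are set side by side within label series 4000 and 31000 in the report.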
